A study of Rattus norvegicus with 16 samples.

Results

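The genes described here are Slc7a12, Slc7a13, Slco1a1, Anxa13, Mpv17l and Pamr1, a set of 6 named tubule genes among the 35849 genes of the table, whose expression was far lower in the kidneys of diabetic rats than in those of normal rats. They were chosen by their fold changes between the DN and normal groups, so that difference is given below as a description, with no p of a member, and nothing is supported with it. RNA-seq was performed on kidneys of male Sprague Dawley rats, 6 to 8 weeks old at the start, with 4 rats in each of 4 groups. Rats of the normal group received citrate buffer and a normal diet. Rats of the DN (diabetic nephropathy) group received streptozotocin (STZ), a toxin of the insulin-producing beta cells, at 45 mg/kg together with a diet rich in glucose and fat. The remaining rats received the same STZ dose and diet and were then given sinomenine (SIN), an alkaloid of Sinomenium acutum, by gavage every day for 8 weeks, at 20 mg/kg in one group and at 40 mg/kg in the other. STZ and diet changed together between the normal group and the other 3 groups, so their parts cannot be told apart. The labels name the tissue as kidney without saying which region was taken. In a whole-tissue sample, fewer cells of a type and less RNA per cell cannot be told apart.

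The proximal tubule reclaims amino acids, glucose and phosphate from the filtrate and secretes organic anions, and its straight final part, the S3 segment, carries its own set of transporters. Slc7a13 encodes AGT1, a transporter of aspartate, glutamate and cystine that works in the S3 segment bound to the heavy chain rBAT, the product of Slc3a1. Slc7a12 encodes Asc-2, a transporter of small neutral amino acids of the same family, and Slco1a1 encodes OATP1A1, which takes up organic anions such as steroid conjugates. Anxa13 encodes an annexin, a protein that binds phospholipid membranes when calcium is present. Mpv17l encodes a relative of the inner mitochondrial membrane protein MPV17 with a role in the metabolism of reactive oxygen species, and Pamr1 encodes a secreted protein with a peptidase-like domain that is named for muscle regeneration.

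The sequence just before the transcription start is shown for the members that have an entry in the RefSeq promoter table of the GRCr8 build. Slc7a12 (chr2:88868104-88868353, minus strand), Slco1a1 (chr4:176681993-176682242, minus strand) and Pamr1 (chr3:109343796-109344045, plus strand) had one, 3 of 6 members. Each sequence covers the 250 bases before the start and is written 5′ to 3′ along the gene. Capitals mark the letters that matched a searched motif of 6 bases on either strand, namely AGAACA (the core letters bound by the androgen and glucocorticoid receptors, read as TGTTCT on the other strand) or AGGTCA (core letters of many other nuclear receptors).
Slc7a12: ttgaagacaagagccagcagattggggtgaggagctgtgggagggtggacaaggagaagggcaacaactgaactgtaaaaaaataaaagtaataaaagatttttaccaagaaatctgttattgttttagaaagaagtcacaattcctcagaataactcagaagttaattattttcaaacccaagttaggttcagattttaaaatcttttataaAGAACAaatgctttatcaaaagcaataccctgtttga
Slco1a1: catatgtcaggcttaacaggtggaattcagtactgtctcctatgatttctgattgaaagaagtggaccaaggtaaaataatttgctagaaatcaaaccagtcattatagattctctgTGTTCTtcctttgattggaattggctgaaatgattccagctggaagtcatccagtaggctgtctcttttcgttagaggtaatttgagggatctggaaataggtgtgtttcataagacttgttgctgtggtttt
Pamr1: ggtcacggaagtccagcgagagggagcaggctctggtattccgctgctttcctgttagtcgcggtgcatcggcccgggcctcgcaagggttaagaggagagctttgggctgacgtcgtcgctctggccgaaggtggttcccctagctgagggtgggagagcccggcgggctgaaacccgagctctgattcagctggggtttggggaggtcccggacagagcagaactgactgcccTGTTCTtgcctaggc

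The letters AGAACA were found in 3 of the 3 windows, at 37 bases before the start in Slc7a12 on the gene's strand, and at 133 bases in Slco1a1 and 15 bases in Pamr1 on the other strand. Of 33469 rat promoters of the same length, 17.5% held these letters. AGGTCA was in 0 of the 3 windows and in 14.1% of all promoters. A match of letters is a description of the sequence and does not show that a factor binds there.

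Each library held between 19616312 and 25217030 estimated counts, and within groups the libraries correlated with Spearman coefficients across genes of 0.969 to 0.987. Expression is given in CPM, the counts of a gene scaled to the size of each library over the 16 rats. Serial numbers of the libraries ran consecutively within each group, so anything these numbers may track and the condition cannot be told apart. Estimated counts that are not whole, which arise where reads are shared with other features, occurred for Slc7a12 in 16 of 16 rats and for Slco1a1, Mpv17l and Pamr1 in 11 of 16 rats, so these levels carry some uncertainty of read assignment. For Mpv17l these 11 rats were all diabetic, and every normal rat had a whole count. Slc7a13 and Anxa13 had whole counts in all 16 rats. The proximal tubule was well represented, since the 7 marker genes Lrp2, Cubn, Slc34a1, Slc5a2, Slc22a6, Gatm and Aqp1 summed to at least 10060 CPM in every rat.

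Both amino acid transporters of the set were lower in every diabetic rat than in any normal rat. Slc7a12 (ENSRNOG00000033830) measured 68.7, 43.6, 62.99 and 73.6 CPM in the normal rats and 6.77, 3.94, 6.93 and 6.29 CPM in the DN rats. It measured 3.14, 2.54, 7.75 and 3.81 CPM in the SIN (20 mg/kg) rats and 5.38, 5.72, 9.89 and 13.9 CPM in the SIN (40 mg/kg) rats. The groups of diabetic rats overlapped one another, and the highest single diabetic rat, at the 40 mg/kg dose, still reached only 31.9% of the lowest normal rat. The mean fell from 62.2 ± 13.2 CPM (SD, n = 4) in the normal group to 5.98 ± 1.39 CPM in the DN group, which was 9.62% of the normal mean. The means of the SIN groups were 6.93% and 14.01% of it at 20 and 40 mg/kg.

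Slc7a13 (ENSRNOG00000024903) was the most abundant member. Its level was 1850, 2090, 2122 and 2207 CPM in the normal rats and 716, 839, 593 and 751 CPM in the DN rats. The SIN (20 mg/kg) rats had 512, 435, 789 and 810.4 CPM and the SIN (40 mg/kg) rats 519, 626, 926 and 981 CPM. In each SIN group a pair of rats lay below the DN mean and a pair above it. Group means were 2067 ± 153 CPM in normal, 725 ± 102 in DN, 636 ± 191 at 20 mg/kg and 763 ± 226 at 40 mg/kg (SD, n = 4 each). DN kidneys therefore kept 35.1% of the normal mean, a larger remainder than for Slc7a12.

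Slco1a1 (ENSRNOG00000036984), the organic anion transporter, had 196, 205, 268 and 261 CPM in the normal rats and 25.8, 21.5, 45.99 and 46.2 CPM in the DN rats. At 20 mg/kg it was 21.6, 10.98, 35.8 and 19.1 CPM and at 40 mg/kg 9.19, 22.97, 29.4 and 59 CPM. The SIN (40 mg/kg) rats were the most spread, from below every DN rat to above every DN rat, with a ratio of highest to lowest of 6.42. The DN mean was 34.9 ± 13.1 CPM against 232 ± 37.4 CPM in the normal group (SD, n = 4), or 15% of it. The SIN means stood at 9.41% and 12.97% of normal at the lower and the higher dose.

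Anxa13 (ENSRNOG00000007980) showed the deepest loss of the 6 genes. It was covered by 632, 500, 1081 and 764 counts in the normal rats but by 25, 7, 11 and 26 counts in the DN rats. The SIN (20 mg/kg) rats had 9, 10, 17 and 3 counts and the SIN (40 mg/kg) rats 6, 6, 18 and 6 counts. The gene was detected in all 16 rats, but so few counts leave its level in diabetic kidneys imprecise. In CPM, the normal rats had 29.4, 24.2, 47.5 and 33.98, the DN rats 1.11, 0.354, 0.492 and 1.24, the SIN (20 mg/kg) rats 0.387, 0.398, 0.861 and 0.141 and the SIN (40 mg/kg) rats 0.317, 0.281, 0.840 and 0.290. The highest diabetic rat reached 5.12% of the lowest normal rat. DN kidneys kept 2.36% of the normal mean, and the SIN groups 1.32% and 1.28%.

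Mpv17l (ENSRNOG00000003285) was the member with the most even levels among the SIN rats. It measured 239.7, 184, 169.6 and 164 CPM in the normal rats and 51.6, 48.04, 59.7 and 65.4 CPM in the DN rats. It measured 55.4, 44.9, 59.5 and 41.4 CPM at 20 mg/kg and 59.5, 50.8, 52.3 and 59.3 CPM at 40 mg/kg. Each of the 4 SIN (40 mg/kg) rats lay within the range of the DN rats. Means were 189 ± 34.7 CPM in normal, 56.2 ± 7.84 in DN, 50.3 ± 8.52 at 20 mg/kg and 55.5 ± 4.55 at 40 mg/kg (SD, n = 4 each). As shares of the normal mean, the 3 diabetic groups stood at 29.7%, 26.6% and 29.3%.

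Pamr1 (ENSRNOG00000005348) had the shallowest loss. Its level was 42.1, 35.97, 38.2 and 37.7 CPM in the normal rats and 16.1, 16.8, 15.97 and 13.7 CPM in the DN rats. Under SIN it was 21.03, 8.91, 12.6 and 18.4 CPM at 20 mg/kg and 9.61, 11.3, 21.5 and 13.7 CPM at 40 mg/kg. The normal and DN rats were each tightly grouped, whereas the SIN rats spread to both sides of the DN range. The choice of members favoured an even loss in the DN rats, so nothing is read from this difference in spread. The DN mean was 15.7 ± 1.35 CPM against 38.5 ± 2.61 CPM in the normal group (SD, n = 4), which is 40.7%, and the SIN groups had 39.6% and 36.4% of normal.

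**Figure D1:**
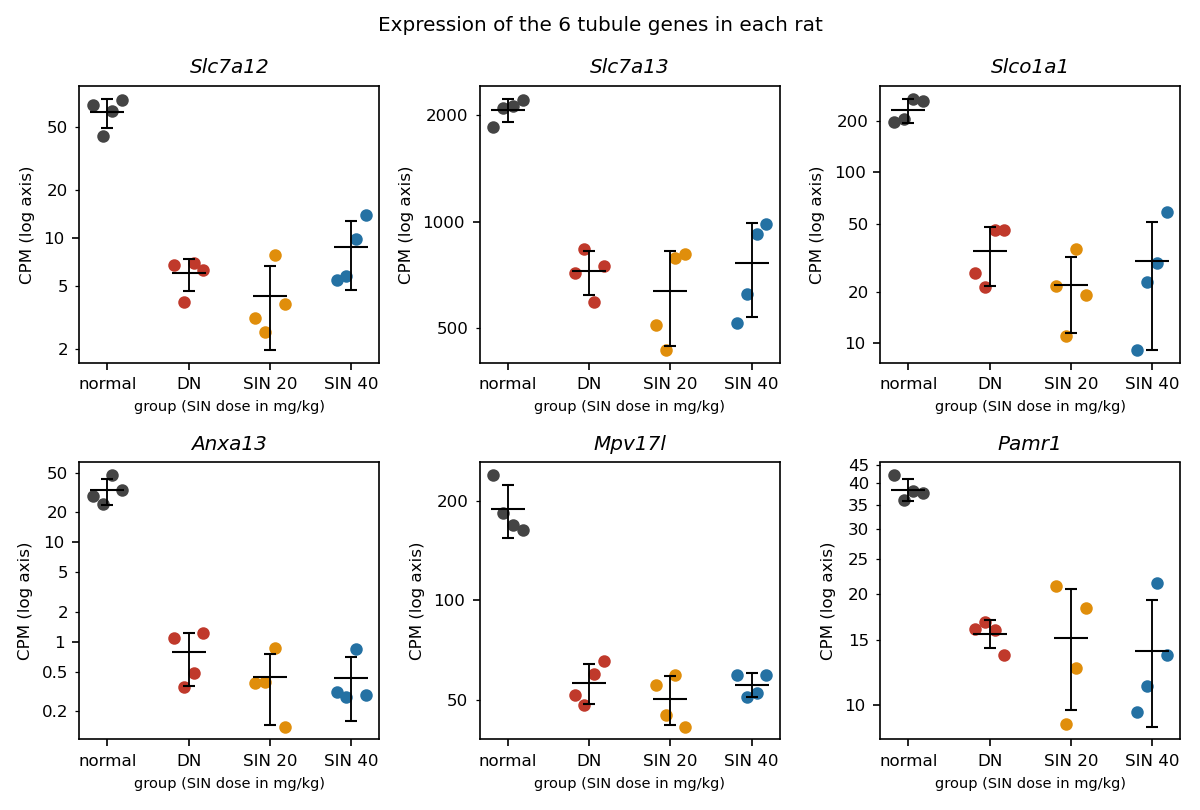
Expression of each gene in each of the 16 rats, in CPM on a log axis, by group (n = 4), with horizontal lines for the mean and bars for 1 SD. For each of the 6 genes the 4 normal rats lie above all 12 diabetic rats, and the DN and SIN rats overlap.

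All 12 diabetic rats were below every normal rat for 6 of the 6 genes. This pattern was held by 2.8% of the 16404 genes expressed in these kidneys. The choice of members used the DN and normal rats, so nothing is read from the members' count. The fitted log2 fold changes of the DN group against the normal group were -3.37 for Slc7a12, -1.51 for Slc7a13, -2.73 for Slco1a1, -5.38 for Anxa13, -1.75 for Mpv17l and -1.29 for Pamr1. Counted from the lowest fold change among 15775 genes tested, Anxa13 stood at place 3, Slc7a12 at 38, Slco1a1 at 68, Mpv17l at 185, Slc7a13 at 273 and Pamr1 at 396. Lower expression by at least 2-fold at an adjusted p under 0.05 (edgeR quasi-likelihood test, Benjamini-Hochberg) was called for 6 of 6 members and for 2.76% of all genes, and nothing is read from the members' count because this contrast chose them. Just outside Pamr1 (-1.29, from 38.5 to 15.7 CPM) lay 2 gene models that are no members. AABR07057436.2 had -1.29 (59.5 to 24.2 CPM), and LOC100909474, also at -1.29, was near the low end of expression (1.63 to 0.671 CPM) and did not pass the call. The next member inside, Slc7a13, had -1.51.

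**Figure D2:**
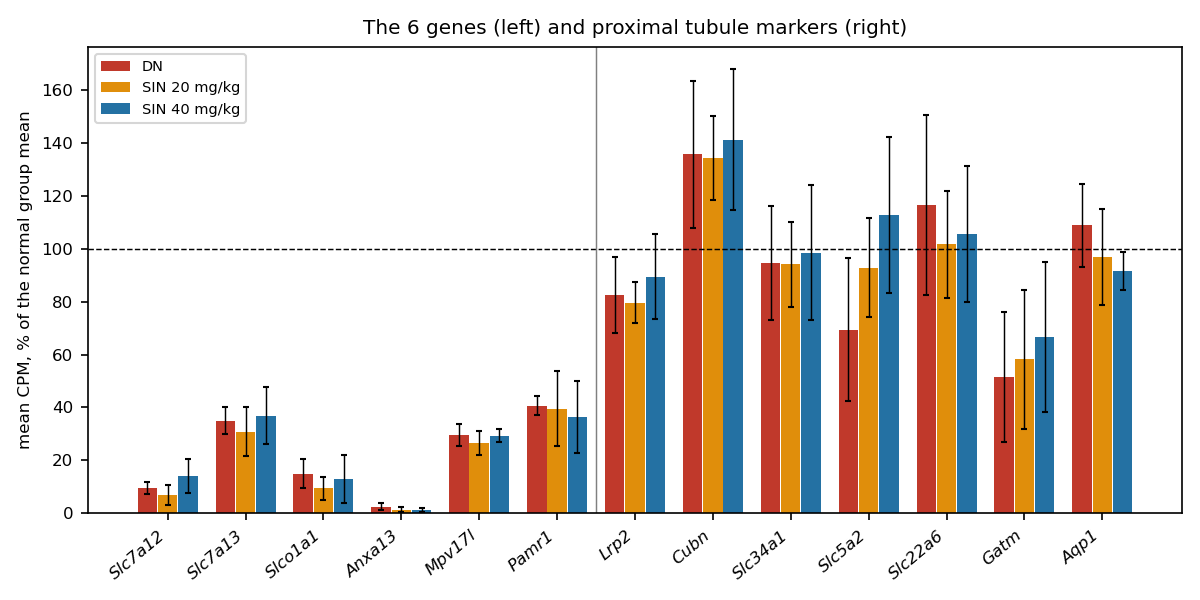
Mean expression in each diabetic group as a percentage of the normal mean, with bars for 1 SD (n = 4 rats per group). Among the members, Anxa13 is lowest in DN kidneys, at 2.36%, and Pamr1 highest, at 40.7%. The proximal tubule markers Lrp2, Cubn, Slc34a1, Slc5a2, Slc22a6, Gatm and Aqp1 lie higher in DN kidneys, from 51.6% (Gatm) to 135.9% (Cubn). The members were chosen for their loss in DN kidneys and the markers were not, so nothing is read from this difference.

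Whether SIN moved these genes was asked by comparing each dose with the DN group. The DN rats helped to choose the members, so these comparisons are not wholly independent of the choice. At 20 mg/kg, 0 of 6 members passed an adjusted p under 0.05 with a 2-fold change in edgeR, and the same was true of 0% of the 15724 genes tested. At 40 mg/kg it was again 0 of 6, against 0% of 15530 genes. At an unadjusted p under 0.05 the count was 0 of 6 members at each dose, where 15.4% of all genes passed at 20 mg/kg and 17.1% at 40 mg/kg. The edgeR exact test also called 0 of the 6 members at either dose, and DESeq2 0 of the 5 for which it gave an adjusted p (all but Anxa13), although across all genes the exact test called 26 at 20 mg/kg and 40 at 40 mg/kg, and DESeq2 29 and 57.

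The amino acid transporters did not pass the test at either dose. For Slc7a12 the log2 fold change against DN in edgeR was -0.49 (SE 0.35, 95% interval -1.26 to 0.28, adjusted p = 0.488) at 20 mg/kg and 0.54 (SE 0.32, 95% interval -0.17 to 1.26, adjusted p = 0.409) at 40 mg/kg. For Slc7a13 it was -0.19 (SE 0.21, 95% interval -0.65 to 0.27, adjusted p = 0.643) and 0.08 (SE 0.21, 95% interval -0.39 to 0.54, adjusted p = 0.876). The fitted sign for both genes was negative at the lower dose and positive at the higher one, with intervals that include 0 in each case. The intervals leave room for a rise of Slc7a12 of up to 1.26 on the log2 scale at 40 mg/kg.

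Slco1a1 gave -0.68 (SE 0.36, 95% interval -1.48 to 0.11, adjusted p = 0.369) at 20 mg/kg and -0.21 (SE 0.47, 95% interval -1.26 to 0.85, adjusted p = 0.851) at 40 mg/kg in edgeR. For Anxa13 the values were -0.85 (SE 0.58, 95% interval -2.13 to 0.43, adjusted p = 0.467) and -0.87 (SE 0.54, 95% interval -2.08 to 0.34, adjusted p = 0.432), on few counts. These intervals are wide, so that moderate changes in either direction were not detectable with 4 rats per group. Mpv17l had the narrowest intervals, at -0.17 (SE 0.14, 95% interval -0.49 to 0.16, adjusted p = 0.567) and -0.02 (SE 0.11, 95% interval -0.27 to 0.24, adjusted p = 0.952) in edgeR. For Pamr1 they were -0.04 (SE 0.24, 95% interval -0.58 to 0.49, adjusted p = 0.940) and -0.16 (SE 0.23, 95% interval -0.67 to 0.35, adjusted p = 0.751). The median log2 fold change of the 6 members against DN was -0.34 at 20 mg/kg and -0.09 at 40 mg/kg, beside -0.01 and 0.01 over all genes tested.

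Set against the normal group, both doses left all members low. These comparisons share the normal rats that the choice of members used, so their values are given as a description, without p. At 20 mg/kg the log2 fold changes were -3.87 ± 0.33 (SE) for Slc7a12, -1.70 ± 0.20 (SE) for Slc7a13, -3.42 ± 0.31 (SE) for Slco1a1, -6.25 ± 0.38 (SE) for Anxa13, -1.92 ± 0.16 (SE) for Mpv17l and -1.34 ± 0.23 (SE) for Pamr1. At 40 mg/kg they were -2.84 ± 0.30 (SE), -1.44 ± 0.19 (SE), -2.95 ± 0.44 (SE), -6.26 ± 0.36 (SE), -1.78 ± 0.13 (SE) and -1.46 ± 0.22 (SE) in the same order. The call of at least 2-fold lower at an adjusted p under 0.05 was met by 6 of 6 members at each dose, and by 1.69% of all genes at 20 mg/kg and 1.8% at 40 mg/kg, and nothing is read from the members' count.

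**Figure D3:**
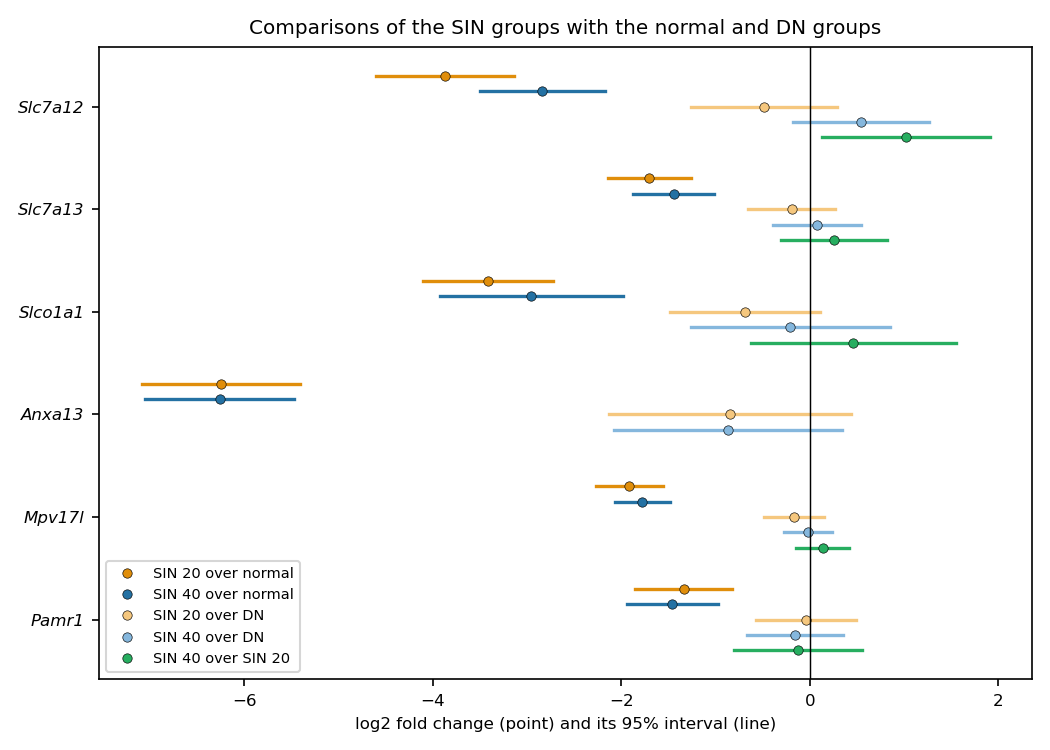
Log2 fold changes of each gene, with bars for the 95% interval of the edgeR fit (n = 4 rats per group). Against the normal group all values lie below 0, and against the DN group every interval includes 0.

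The comparison of the doses with each other used no rat from which the members were chosen. In edgeR, 0 of the 5 members tested passed, beside 0.00639% of 15657 genes, and DESeq2 and the edgeR exact test called 0 of them as well. At an unadjusted p under 0.05 it was 1 of 5 members, where 4.98% of all genes passed. That gene was Slc7a12, whose level at 40 mg/kg exceeded that at 20 mg/kg by 1.02 (SE 0.40, 95% interval 0.13 to 1.91, adjusted p = 0.961) on the log2 scale. The unadjusted p was 0.0280, and 3 of the 4 rats at 20 mg/kg were below all 4 rats at 40 mg/kg. Slc7a13 differed by 0.26 (SE 0.25, 95% interval -0.30 to 0.82, adjusted p = 0.973) and Slco1a1 by 0.46 (SE 0.49, 95% interval -0.63 to 1.55, adjusted p = 0.981). For Mpv17l the difference was 0.13 (SE 0.12, 95% interval -0.14 to 0.41, adjusted p = 0.971), and for Pamr1 -0.12 (SE 0.31, 95% interval -0.81 to 0.56, adjusted p = 0.996). Anxa13 was too low in both SIN groups to pass the filter on low counts.

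Spread among rats of one group differed between the genes. For Pamr1 the coefficient of variation was 8.63% in the DN group, 36.0% at 20 mg/kg and 37.5% at 40 mg/kg, and for Slc7a13 it was 14.1%, 30.0% and 29.6%. Mpv17l stayed between 8.20% and 16.9% in the 3 diabetic groups. Members were chosen for a consistent loss in the DN rats, which favours a small spread there. Nothing is therefore read from a wider spread under SIN. Some rats held the extreme of several genes, in every group. Replicate 2 of the normal group was lowest for 3 of the 6 genes, and replicate 2 of the DN group was lowest for 4 and highest for the other 2. At 20 mg/kg, replicate 2 was lowest for 4 of the 6 genes and replicate 3 highest for 4. At 40 mg/kg, replicate 1 was lowest for 4 genes and replicates 3 and 4 were highest for 2 and 3 of them. These counts describe single rats and were not tested.

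**Figure D4:**
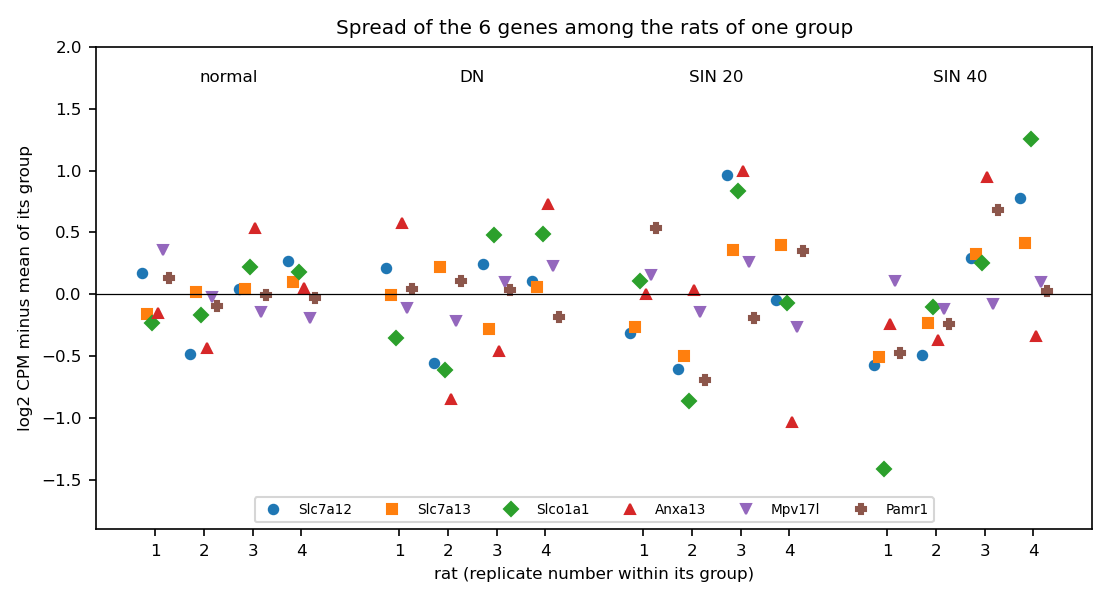
Difference of each rat from its own group's mean on the log2 CPM scale, for each gene, by group and replicate. In the SIN groups replicate 2 at 20 mg/kg and replicate 1 at 40 mg/kg are lowest for 4 of the 6 genes.

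Levels of different genes can be set side by side only per length of transcript. In CPM per kilobase, using the length given in the table, the normal means ran from 1010 for Slc7a13 through 238 for Mpv17l, 103 for Slco1a1, 35.8 for Slc7a12 and 21.0 for Anxa13 to 13.7 for Pamr1. The rats' ranges of Slc7a12 and Anxa13 overlapped, so these neighbours are not separated in the normal group. In DN kidneys the order changed at its lower end, with 354 for Slc7a13, 70.7 for Mpv17l, 15.5 for Slco1a1, 5.57 for Pamr1, 3.44 for Slc7a12 and 0.496 for Anxa13. Pamr1 thus moved from last place in normal kidneys to above Slc7a12 and Anxa13.

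The relatives of the members, taken from lists of each family and counted at an adjusted p under 0.05 in edgeR without a fold minimum, mostly did not pass the test in DN kidneys. Across all genes, 10.8% were lower and 8.74% higher by this call. Of 15 other amino acid transporter genes of the SLC7 and SLC3 families, 11 were tested and 0 passed (median log2 fold change -0.03). Slc3a1, the heavy chain partner of Slc7a13, averaged 3230 CPM in normal and 2845 CPM in DN kidneys, a log2 fold change of -0.18 with an adjusted p of 0.314 in edgeR. In the SIN groups it averaged 2275 and 2219 CPM, and it was lower than in normal kidneys by log2 fold changes of -0.51 and -0.54 (edgeR adjusted p = 0.0290 and 0.0183). Against the DN group it did not pass at either dose (edgeR adjusted p = 0.289 and 0.204).

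Among the organic anion transporters, 7 of 12 listed relatives of Slco1a1 were tested, and 3 were lower and 1 higher in DN kidneys, with a median of -0.39. Slco1a6, a close relative of Slco1a1, fell from 421 to 168 CPM, a log2 fold change of -1.32 (edgeR adjusted p = 0.00480), and averaged 179 and 171 CPM in the SIN groups. Slco4c1 and Slco2b1 fell by less, with -0.51 and -0.39, and the prostaglandin transporter Slco2a1 rose by 0.65. Of 10 other annexins tested, 0 were lower and 2 were higher, namely Anxa6 (0.85) and Anxa7 (0.50). Of 16 genes of the Mpv17 family and of peroxisomes, 2 fell and 3 rose. The peroxisomal oxidase Hao2 fell by 0.90 and the peroxisome division factor Pex11a by 0.88, whereas Mpv17, Pex14 and Acaa1a rose by 0.43, 0.48 and 0.61. The Cat gene, for catalase, averaged 1233 CPM in normal and 1252 CPM in DN kidneys.

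The lists for the tubule segments are read against the same shares of all genes, 10.8% lower and 8.74% higher. Of 13 genes listed for the S3 segment and tested, 2 fell in DN kidneys, with a median of -0.09. These were Slco1a6, already counted among the organic anion transporters, and the monocarboxylate transporter Slc5a8 (-0.85). Of 10 genes of the S1 and S2 segments, 1 fell, the sodium bicarbonate cotransporter Slc4a4 (-0.92). Of 7 kidney genes known to respond to androgen, 1 fell, the organic cation transporter Slc22a2 (-0.64). Kap, another gene regulated by androgen, was not on that list, and averaged 2026 CPM in normal and 378 CPM in DN kidneys. Kap is named because the search for like profiles, below, found it nearest to Slco1a1. That search picks genes of like loss, so nothing is read from the fall of Kap. Of 8 proximal tubule transcription factors, 0 passed the edgeR test (median -0.21). Hnf4a averaged 855 CPM in normal and 772 CPM in DN kidneys. In these lists 0 genes passed between either SIN group and the DN group. The same was true of 0 genes over the whole table, so this count says nothing particular about the lists.

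Markers of other cells and of tubule injury also differed between the groups, and their part in the result was not tested. Of the 7 proximal tubule markers, 0 passed in DN kidneys, and their sum ranged from 12160 to 16800 CPM in the normal rats, 10060 to 14180 in DN, 10340 to 13750 at 20 mg/kg and 11770 to 15290 at 40 mg/kg. Of 8 injury markers tested, 4 rose and 1 fell in DN kidneys. Havcr1, which encodes the injury marker KIM-1, rose by a log2 fold change of 2.23 and Clu by 1.17, while Vcam1 fell by 0.98. The sum of the injury markers was 500.8 to 825.8 CPM in normal, 926.9 to 1626 in DN, 1096 to 2547 at 20 mg/kg and 857.2 to 1690 CPM at 40 mg/kg. Markers of the collecting duct summed to 331.6 to 943.6 CPM in normal and 673.7 to 1796 CPM in DN kidneys, and those of the thick ascending limb to 3654 to 4840 and 2087 to 3773 CPM. Of the thick ascending limb markers 1 of 4 fell, of the intercalated cell markers 1 of 4 and of the leukocyte markers 1 of 5, while 2 of 5 fibroblast markers rose. By the edgeR test, 0 of 5 collecting duct, 0 of 2 distal convoluted tubule, 0 of 5 podocyte and 0 of 4 endothelial markers passed. The liver and adrenal markers in the table, 3 of 4 listed, summed to at most 2.53 CPM in any rat.

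The genes whose profile over the 16 rats was most like that of a member were found by the root mean square difference of log2 CPM, after each gene was set relative to its normal mean. The other members and genes without an established symbol were left out of this search. This measure is small for genes that share the same depth of loss, and was chosen as the normal and diabetic rats form separate clusters. For Slc7a13 the nearest were Basp1 (0.28), Scn8a (0.32) and Slco1a6 (0.35). For Slco1a1 the nearest gene outside the set was Kap, an abundant kidney gene regulated by androgen, at 0.70, with means of 229 CPM at 20 mg/kg and 269 CPM at 40 mg/kg. Mpv17l was nearest to Dio1 (0.30), the deiodinase that activates thyroid hormone, and to Ptgds (0.31) and the prolactin receptor gene Prlr (0.34). Pamr1 was nearest to Pld1 (0.29), Basp1 (0.30) and Nrep (0.31), and Slc7a12 to Cpne4 (0.73), Ccn6 (0.75) and Slc35f1 (0.78). Cpne4 averaged 0.143 CPM and Ccn6 0.101 CPM in DN kidneys and less in both SIN groups, so that their distances rest largely on the prior count of 2 added before the logarithm. Anxa13 had no close neighbour by this measure, the nearest being Cyp8b1 at 1.10. Cyp8b1 averaged 0.223 CPM in DN kidneys and less in both SIN groups, and Anxa13 had few counts there. This distance thus also rests in part on the prior count. Between members, the closest pairs were Slc7a13 with Pamr1 (0.37), Slc7a13 with Mpv17l (0.42), and Mpv17l with Pamr1 and Slc7a12 with Slco1a1 (both 0.53). Anxa13 was at least 2.24 from each other member.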

How the data were processed

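Kidney poly(A) RNA was sequenced as paired-end reads. Per the labels and the study's methods, reads were trimmed with SeqPrep and Sickle and aligned with TopHat to the Rnor_6.0 genome, and the submitters' processing notes also name Bowtie, RSEM and edgeR, without versions. The deposited table holds estimated counts per gene, not normalized, of which 86.2% were whole within 0.001. The kit is not stated to mark strand. Of 20 library columns, 4 match no sample and were not used, nor were 1 unmapped mean column and the authors' 4 group means.

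Counts were rounded and tested with the quasi-likelihood test of edgeR 4.0.16 (TMM, filterByExpr, Benjamini-Hochberg) on the 2 groups compared, over all genes. A call needed an adjusted p under 0.05 and at least a 2-fold change. For CPM, TMM scaling was computed on the 16 libraries together, with a prior count of 2 on the log2 scale. Standard errors are the fold change over the root of F. Scripts were tested on simulated data. Alternatives were DESeq2, the edgeR exact test, RLE scaling, other filters on low counts, one fit of all 16 rats, a replicate block, and leaving out each rat.

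Named genes are the 6 members, the genes of the family, segment and marker lists, and the 3 genes most like each member. Members and lists were chosen with earlier results of these data known. The labels number the samples of a group but identify no animals, so p-values measure the spread between these samples. Promoter sequences are from RefSeq (GRCr8), a build other than that of the counts, and were matched by symbol. Some items of the lists and of the motif search are not reported here.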

Additional observations from a re-analysis of the deposited data

Results flagged for a closer look

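The 6 genes were checked for single rats far from the other 3 of their group, in 24 sets of 4 values, and 1 was found. Anxa13 at 40 mg/kg was 0.840 CPM in replicate 3, where the other 3 rats had between 0.281 and 0.317 CPM, and the gap to the nearest rat made up 0.937 of the whole range. Chance alone flags about 1 in 20 such sets. This rat still had far less Anxa13 than any normal rat.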

How the results depend on the processing

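Of the 35 fold changes of members, 0 crossed the threshold under any alternative that gave a value. Anxa13 gave none with at least 10 counts in every rat, no adjusted p in DESeq2 for either SIN group against DN, and at 40 mg/kg against DN no value without DN replicate 1, DN replicate 4 or SIN (40 mg/kg) replicate 3. Leaving out 1 rat turned the sign of 6 that had not passed, which then ranged from -0.24 to 0.14 for Pamr1 at 20 mg/kg against DN, from -0.075 to 0.22 for Slc7a13, -0.087 to 0.061 for Mpv17l and -0.77 to 0.093 for Slco1a1 at 40 mg/kg against DN, and from -0.41 to 0.076 for Pamr1 and -0.085 to 0.80 for Slco1a1 between the doses. With 1 rat of either group left out, Mpv17l at 40 mg/kg (29.3% of normal) ranged from 28.0% to 32.1%. Its upper end moved by more than the SD between the rats at this dose, which was 2.40% of the normal mean. Relative moves were larger for Slco1a1 at 40 mg/kg (12.97%, from 8.83% to 15.97%), Anxa13 at 20 mg/kg (1.32%, from 0.914% to 1.63%) and at 40 mg/kg (1.28%, from 0.877% to 1.48%), and Slc7a12 at 20 mg/kg (6.93%, from 5.09% to 7.87%).

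Counts of genes called over the whole table moved more, and the cause was not tested beyond the construction of each alternative. DN against normal gave 599 genes, 3074 without the fold minimum, and 306 to 741 with 1 rat left out (341 without normal replicate 3, 306 without normal replicate 4 and 381 without DN replicate 2). SIN against normal gave 394 genes at 20 mg/kg and 388 at 40 mg/kg, and 1009 and 940 without the fold minimum. Against DN, 0 genes at 20 mg/kg became 29 with DESeq2, 26 with the exact test, 2 with no filter, 2 with at least 10 counts in every rat and 5 in one fit of all 16 rats, and 0 at 40 mg/kg became 57, 40 and 2 with DESeq2, the exact test and one fit, and 0 to 3 with 1 rat left out (1 without DN replicate 1 and 3 without DN replicate 3). Between the doses 1 gene became 4 with DESeq2, 3 with the exact test and 0 in one fit, and 0 to 5 with 1 rat left out (5 without SIN (40 mg/kg) replicate 1, 0 without replicate 2 or 4 of that group).

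No clear pairing of the rats by replicate number was seen, though 4 rats per group cannot exclude one. Over the 6 comparisons same-numbered rats correlated in their deviations from group means at -0.24 to 0.24. In any comparison at most 1 of 4 pairs exceeded 0.1, and at most 4 of 8 rats correlated best with their own number. With the replicate block, DN against normal gave 383 genes and the comparison between doses 0.

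Few counts of Anxa13 in diabetic rats limit its precision, and 4 rats per group limit every comparison of SIN with DN.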
